A study of Mus musculus with 6 samples.

Results

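The 37 genes described here are a fixed list of cell cycle genes, grouped by the phase in which their products act, and they were taken as listed from the 27514 genes counted in both brain regions of the study. The D cyclins *Ccnd1*, *Ccnd2* and *Ccnd3* form a group of 3 genes of the G1 phase, and the E cyclins *Ccne1* and *Ccne2* a group of 2 genes of the G1/S transition. The S phase group holds 11 genes of DNA replication and nucleotide synthesis (*Pcna*, *Mcm2* to *Mcm7*, *Rrm1*, *Rrm2*, *Tyms* and *Pclaf*). The G2/M group holds 18 genes of mitosis (*Ccna2*, *Ccnb1*, *Ccnb2*, *Cdk1*, *Mki67*, *Top2a*, *Birc5*, *Ube2c*, *Cenpf*, *Cenpa*, *Cenpe*, *Aurka*, *Aurkb*, *Bub1*, *Plk1*, *Cdc20*, *Tpx2* and *Nusap1*). The last group is the 3 inhibitors of cyclin-dependent kinases (CDKs) *Cdkn1a*, *Cdkn1b* and *Cdkn1c*, which encode p21, p27 and p57. All 37 were found in both regions by their Ensembl identifiers, and *Pclaf* carried the older symbol 2810417H13Rik in the hippocampal counts.

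The counts come from single-cell RNA sequencing (scRNA-seq) of untreated wild-type C57Bl/6J female mice, with the cerebral cortices collected at 3 weeks of age and the hippocampi at 5 weeks. In each region the cells of 3 mice were pooled into 1 suspension after perfusion and a short enzymatic digestion, and the suspension was run as 3 libraries on the 10x Genomics droplet platform, without selecting any cell type. The 3 libraries of a region are therefore technical replicates of 1 biological sample, and no p-value is given for any comparison. The 2 sets of libraries differ in brain region, age, preparation and gene annotation at once, and these cannot be told apart.

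A cell that divides first raises D cyclins, which with their kinases release the E2F transcription factors, and these switch on the E cyclins and the replication genes. As cells pass to G2 and mitosis the genes of the spindle, centromere and chromosome scaffold follow together, and after division their transcripts disappear. CDK inhibitors hold the kinases back and are also made by many cells that have stopped dividing. In the postnatal brain most neurons and glia have left the cycle, whereas precursors of granule neurons in the dentate gyrus, oligodendrocyte precursor cells (OPCs) and, in young animals, cells of growing blood vessels still divide.

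The promoters of the members show how the S phase and G2/M groups differ in sequence. Promoter windows of 300 bases, from 250 before to 50 after a transcription start, were available from RefSeq (GRCm38.p6) for 29 of the 37 members, and were not used here for *Ccnd1*, *Ccnd2*, *Ccne2*, *Mcm4*, *Ccna2*, *Aurkb*, *Tpx2* and *Cdkn1c*. The windows were searched on both strands for the cell cycle homology region (CHR, written TTTGAA or TTCGAA), the CCAAT box (CCAAT) and E2F words (TTTCCCGC, TTTCGCGC, TTTGCCGC or TTTGGCGC). A CHR and a CCAAT box stood in the same window for 11 of the 15 G2/M genes with a window (73.3%), for 2 of 10 S phase genes and for 8.61% of 27025 genes. CCAAT boxes were as frequent in the S phase group, in 9 of 10 genes, as in the G2/M group, in 13 of 15, against 41.1% of all genes. E2F words were found in 5 of 10 S phase genes (*Mcm3*, *Mcm5*, *Mcm6*, *Mcm7* and *Pclaf*), in 1 of 15 G2/M genes (*Cdk1*) and in 2.60% of all genes. Neither the windows of the D and E cyclins nor those of the CDK inhibitors held a CHR or an E2F word. Windows of 3 G2/M genes and 1 S phase gene are printed from 5′ to 3′ in the direction of transcription, with every CHR, CCAAT box or E2F word in capitals, to show the repeated motifs. *Top2a*, the topoisomerase that untangles sister chromatids, had 4 CHR words and 6 CCAAT boxes in the window chr11:99024140-99024439, minus strand.
Top2a: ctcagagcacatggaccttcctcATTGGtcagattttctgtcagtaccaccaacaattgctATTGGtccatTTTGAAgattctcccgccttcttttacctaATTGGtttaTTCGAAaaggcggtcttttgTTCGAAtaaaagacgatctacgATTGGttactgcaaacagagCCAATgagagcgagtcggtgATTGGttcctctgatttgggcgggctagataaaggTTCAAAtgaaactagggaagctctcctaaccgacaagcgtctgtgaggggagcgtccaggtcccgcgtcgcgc
*Cdk1*, the kinase of mitotic entry, had 2 CHR words, 3 CCAAT boxes and 1 E2F word in chr10:69352863-69353162, minus strand.
Cdk1: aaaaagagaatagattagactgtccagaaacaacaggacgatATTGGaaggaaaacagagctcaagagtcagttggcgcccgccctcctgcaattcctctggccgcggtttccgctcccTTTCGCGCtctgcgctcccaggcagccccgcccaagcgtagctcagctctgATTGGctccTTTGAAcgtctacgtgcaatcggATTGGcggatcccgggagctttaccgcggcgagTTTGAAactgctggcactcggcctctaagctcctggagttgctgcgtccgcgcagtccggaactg
*Ube2c*, which helps to destroy mitotic cyclins, had 1 CHR word and 6 CCAAT boxes in chr2:164769679-164769978, plus strand, where 2 of the boxes overlap on opposite strands.
Ube2c: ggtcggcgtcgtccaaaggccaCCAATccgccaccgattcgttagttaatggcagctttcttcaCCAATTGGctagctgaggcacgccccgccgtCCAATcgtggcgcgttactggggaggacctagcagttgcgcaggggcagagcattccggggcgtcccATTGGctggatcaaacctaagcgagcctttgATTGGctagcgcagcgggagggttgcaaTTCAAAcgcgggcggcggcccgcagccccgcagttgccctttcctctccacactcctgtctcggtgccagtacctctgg
*Mcm6*, a subunit of the replicative helicase, had no CHR word, 2 CCAAT boxes and 3 E2F words in chr1:128359656-128359955, minus strand, where 2 of the E2F words overlap.
Mcm6: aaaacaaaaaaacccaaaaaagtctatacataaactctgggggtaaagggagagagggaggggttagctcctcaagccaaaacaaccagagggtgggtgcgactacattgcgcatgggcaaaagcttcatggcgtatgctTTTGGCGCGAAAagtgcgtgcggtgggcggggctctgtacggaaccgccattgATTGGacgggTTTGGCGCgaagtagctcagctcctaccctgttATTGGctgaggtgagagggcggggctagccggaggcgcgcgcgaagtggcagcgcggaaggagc
These matches describe letters in the window, not sites in use.

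The 6 libraries held 39662203 to 50024850 unique molecular identifiers (UMIs), each standing for 1 captured RNA molecule. With the quality limits of the study (250 to 6000 genes and under 25% mitochondrial UMIs), 13320 cortical cells with a median of 5857 UMIs and 14210 hippocampal cells with a median of 6775 UMIs were kept. Of these, 71 cells in the cortex and 749 in the hippocampus had a barcode that occurred in more than 1 library of the region, among them 558 of 825 choroid plexus epithelial-like cells. Cells were clustered without the cell cycle genes and named from marker genes, so that these genes did not define the classes. Markers of single cells gave the same class as their cluster in 96.4% of cells in the cortex and 98.6% in the hippocampus, among those named both ways. For cells with at least 3 G2/M genes the match was counted over all such cells. Those left unassigned by their own markers thus counted as not matching. The match held for 24 of 24 in the cortical endothelial-like class, but for 8 of 18 cortical and 30 of 85 hippocampal cells in the immature neuron-like class. A cortical cluster of 54 cells that carried both T and B cell genes among its leading genes (*Cd3g* and *Ms4a4b* beside *Igkc* and *Cd79a*) is called the B/T-cell-gene cluster. Levels are given as CPM, the usual scaled count in which the UMIs of a gene are divided by all UMIs of the same cells, for the 3 libraries pooled, with the values of replicates 1, 2 and 3 where named and with exact 95% intervals that cover counting error only. Exons of 13 of the 37 members overlap those of another gene, in 2 of them on the same strand, and their UMIs may include some of that gene.

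G2/M transcripts were concentrated in very few cells, and those cells carried most of the UMIs of the group. Of the kept cells, 11341 in the cortex and 12075 in the hippocampus had no UMI of any of the 18 G2/M genes, and 1718 and 1757 had a UMI of exactly 1 of them. Only 21 and 63 cells had 3 or 4 of them and 15 and 35 cells had 5 to 9, whereas 8 and 22 cells had all 18. The cells with 10 or more of the genes, 38 in the cortex and 65 in the hippocampus, were 0.285% and 0.457% of the kept cells and held 59.6% and 74.9% of all G2/M UMIs. These cells were deep, with medians of 17695 and 17872 UMIs.

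**Figure D1:**
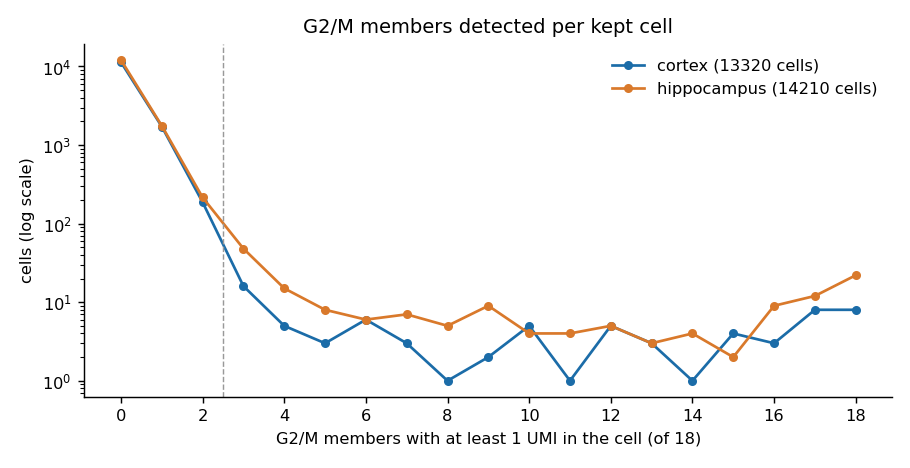
Number of kept cells (log scale) by the number of the 18 G2/M genes with at least 1 UMI in the cell, for the cortex (13320 cells) and the hippocampus (14210 cells), with a dashed line between 2 and 3 genes. Both lines fall from over 10000 cells at 0 genes to a low middle and end with 8 cortical and 22 hippocampal cells that had all 18.

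How far each member follows this programme was measured as the share of its UMIs in cells with at least 3 other G2/M genes. In the G2/M group the median share was 70.0% in the cortex and 82.2% in the hippocampus. *Mki67*, the proliferation marker Ki-67, reached 96.8% and 90.6%, *Top2a* 90.5% and 96.3%, and *Birc5*, the mitotic protein survivin, 93.3% and 90.9%. *Cdk1* had only 31.5% of its cortical UMIs in such cells, against 66.1% in the hippocampus. *Cenpa*, the histone variant of centromeres, had 34.2% and 52.7%. The S phase group split in 2, with *Pclaf*, a partner of PCNA, at 81.1% and 82.6% and *Rrm2*, the regulated subunit of ribonucleotide reductase, at 64.2% and 81.7%. The other S phase genes lay between 8.04% and 33.8% in the cortex and between 10.0% and 37.8% in the hippocampus, lowest for *Pcna*, the sliding clamp of DNA polymerase. E cyclins had 37.9% to 53.8% of their UMIs in such cells, D cyclins 2.01% to 24.3% and CDK inhibitors 0.332% to 3.97%. For the D cyclins and CDK inhibitors these cells held 1.31% of all UMIs in the cortex and 1.89% in the hippocampus. *Ccnd2* was furthest above that share, at 11.4% and 24.3%. *Ccnd1* (2.61% and 3.87%), *Ccnd3* (2.01% and 2.16%) and *Cdkn1b* (1.62% and 3.97%) were above it by less. *Cdkn1a* was below it in the cortex (1.20%) and above it in the hippocampus (2.18%), and *Cdkn1c* was below it in both (0.598% and 0.332%).

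To compare classes at equal depth, each cell was thinned to 2000 UMIs, shallower cells were left out, and a cell was counted when it still had UMIs of at least 3 G2/M genes. By this count 40 of 12233 cortical cells (0.327%, interval 0.234% to 0.445%) and 73 of 12489 hippocampal cells (0.585%, interval 0.458% to 0.734%) remained. The replicates gave 0.275%, 0.189% and 0.523% in the cortex and 0.557%, 0.677% and 0.515% in the hippocampus, and cortical replicate 3 lay within the hippocampal range. Without thinning the counts were 74 (0.556%) and 163 (1.147%), of which 8 and 2 were called doublets. Of the 163 unthinned hippocampal cells, 25 shared their barcode with another library, had a median of 602 UMIs and lay in an unnamed cluster led by leukocyte genes such as *Cd52* and *Lsp1*, and 138 (1.03%) remained without them.

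The thinned share was highest in the immature neuron-like class, named from *Dcx*, *Sox11* and *Igfbpl1* among others, with 13 of 67 cortical cells (19.4%, interval 10.8% to 30.9%) and 61 of 401 hippocampal cells (15.2%, interval 11.8% to 19.1%). The hippocampal replicates gave 15.3%, 15.6% and 14.6%. The class name is that of the cluster. Before thinning, the own markers of cells with at least 3 G2/M genes pointed to this class in only 8 of 18 cortical and 30 of 85 hippocampal cells. In OPC-like cells, which were named in the hippocampus only, it was 5 of 77 (6.49%), with 0 of 15 cells in replicate 1 even before thinning. The cortical B/T-cell-gene cluster had 6 of 52 (11.5%), all from replicates 1 and 3. Macrophage-like cells had 3.70% and 2.16% and cortical monocyte-like cells 2.41%, each resting on 2 or 3 cells. Among endothelial-like cells, 14 of 2451 counted in the cortex (0.571%, interval 0.313% to 0.957%) and 1 of 1950 in the hippocampus (0.0513%, interval 0.00130% to 0.285%). Microglia-like and astrocyte-like cells had hardly any. Among microglia-like cells 1 of 6009 in the cortex and 2 of 5793 in the hippocampus counted. Astrocyte-like cells had 0 of 2150 and 0 of 1534, which allows shares of up to 0.140% and 0.196%. Oligodendrocyte-like cells also had none, of 1079 in the hippocampus and 66 in the cortex, which allows up to 0.278% and 4.55%. All these shares are for classes named by cluster. The unnamed hippocampal clusters had 1 of 487 after thinning, which left out 243 of their 730 cells. Without thinning, 36 of the 730 (4.93%) had at least 3 G2/M genes. These 36 had a median of 627 UMIs, and 25 of them shared their barcode with another library. With cells classed by their own markers, 18 members were called higher in hippocampal than in cortical microglia-like cells in the comparison of regions. The share of all genes called is not given for that setting, so the 18 cannot be set against a background. In that setting 75.6% of all called genes were higher in the hippocampus.

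Summed over the 18 genes, the G2/M level was 1679 CPM in immature neuron-like cells of the cortex (1674, 1522 and 1841 in replicates 1 to 3) and 1999 CPM in those of the hippocampus (2328, 1783 and 1965). OPC-like cells had 1352 CPM, with 32.2, 1534 and 1734 in the replicates, and the B/T-cell-gene cluster 1472 CPM, with 1118, 84.8 and 3067. In both of these 1 replicate stood far below the others. These sums depend on how dividing cells were assigned. With the cell cycle genes kept in the clustering, they were 3721 and 243 CPM in immature neuron-like cells and 158 CPM in OPC-like cells. Endothelial-like cells had 138 CPM in the cortex (168, 57.1 and 189) and 35.3 CPM in the hippocampus (51.8, 25.8 and 28.1), so that all 3 cortical values were above the hippocampal ones although cortical replicate 2 lay close to them. Microglia-like cells had 25.7 CPM (24.0, 22.5 and 30.7) and 19.1 CPM (20.1, 19.03 and 18.2), and astrocyte-like cells 12.3 and 16.9 CPM. By share of the regional total, endothelial-like cells held 42.9% of the cortical G2/M UMIs, microglia-like cells 12.9% and immature neuron-like cells 12.3%. Of all cortical UMIs these classes held 23.4%, 37.7% and 0.553%, so microglia-like cells were under their share. The cortical order rests on the clustering, since the endothelial-like sum was 37.3 CPM with the cell cycle genes kept in it. In the hippocampus 66.1% came from immature neuron-like cells, which were 3.00% of the cells and held 3.93% of all UMIs. OPC-like (7.29%), microglia-like (5.59%) and macrophage-like cells (4.65%) followed, with 0.641%, 34.7% and 1.08% of all UMIs. The hippocampal order rests on the clustering too, given the 243 and 158 CPM of immature neuron-like and OPC-like cells with the cell cycle genes kept.

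**Figure D2:**
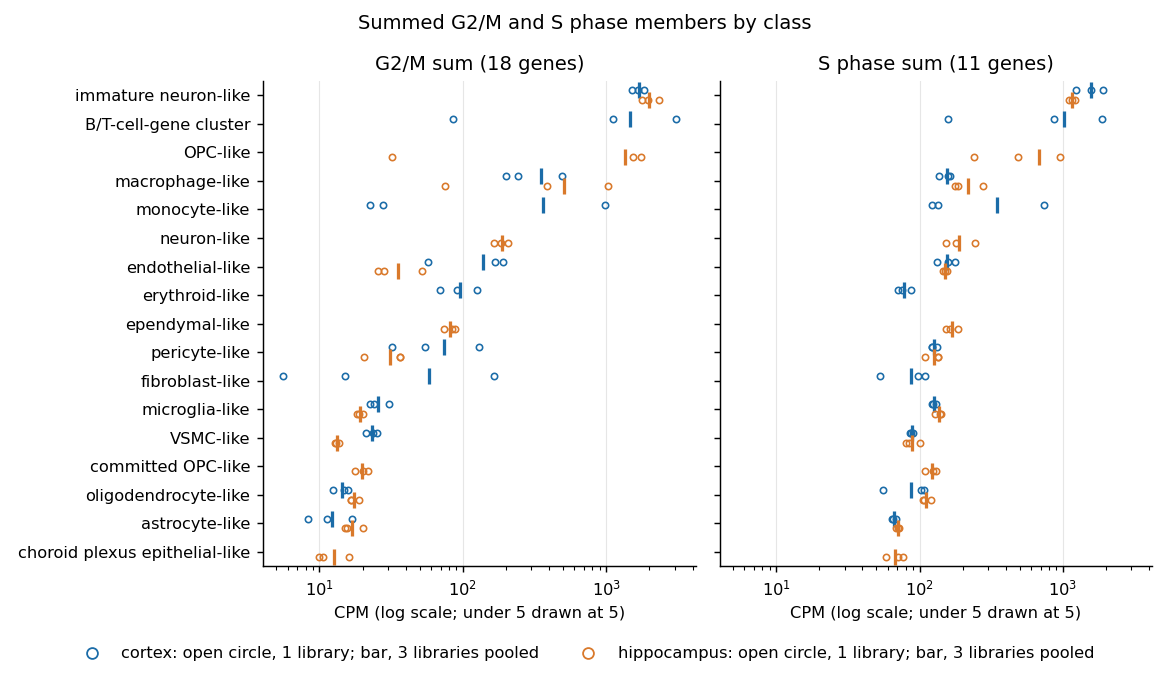
Summed CPM (log scale) of the 18 G2/M genes (left) and the 11 S phase genes (right) by class and region, with an open circle for each library and a bar for the 3 libraries pooled. Immature neuron-like cells lead both panels at 1679 and 1999 CPM for G2/M, and most other classes differ less in the S phase sum than in the G2/M sum.

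The 6 G2/M genes with the most UMIs were between 106 and 328 CPM in immature neuron-like cells of both regions. *Top2a* was at 249 CPM in cortical immature neuron-like cells (254, 210.4 and 285) and at 328 CPM in hippocampal ones (350.1, 296 and 349), and at 278 CPM in OPC-like cells (0, 385 and 254). *Mki67* was at 131 CPM (104, 111 and 173) and 214 CPM (257, 186 and 208) in immature neuron-like cells, against 0.371 and 0.0740 CPM in microglia-like cells. *Ube2c* was at 166 CPM (202, 183 and 117) and 203 CPM (236, 175 and 208), and *Cenpf*, a kinetochore protein, at 125 CPM (111, 105 and 156) and 235 CPM (341, 189 and 192). *Cenpa* was at 175 CPM (222, 138 and 173) and 142 CPM (138, 141 and 147). *Cdk1* was at 131 CPM (124, 144 and 123) and 106 CPM (107, 96.8 and 115). None of these 6 genes differed 2-fold between the regions in this class. With the cell cycle genes kept in the clustering, however, 31 members were called higher in the cortex in the comparison of regions. The clustering then used 86 cell cycle genes among 2000 in the cortex and 88 among 2000 in the hippocampus. The share of all genes called is not given for it, so the 31 cannot be set against a background. In that setting 62.4% of all called genes were higher in the hippocampus. The other 12 G2/M genes were between 13.6 CPM (*Bub1*) and 164 CPM (*Birc5*) in the cortical and between 22.8 CPM (*Bub1*) and 113 CPM (*Birc5*) in the hippocampal class.

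Within the immature neuron-like class, the cells with G2/M transcripts carried more RNA of neural progenitor markers and less of immature neuron markers. The class holds 18 cortical and 85 hippocampal cells with at least 3 G2/M genes and 45 and 244 cells with none. The summed level of 9 progenitor markers was 2254 CPM in the former against 380 CPM in the latter in the cortex, and 2338 against 736 CPM in the hippocampus, with 8 of 9 markers higher in the cortex, where *Tfap2c* had no UMI in either, and 9 of 9 in the hippocampus. The 10 immature neuron markers went the other way, at 4863 against 12539 CPM and 4898 against 11485 CPM, with 10 of 10 lower in each region. In the cortex the intervals of *Dlx1* and *Dlx2* overlapped, for *Dlx2* at 310 to 476 against 347 to 518 CPM. Among progenitor markers they overlapped for *Dll1* in the cortex, at 15.0 to 68.4 against 0.107 to 23.5 CPM. They also overlapped for *Egfr* in the hippocampus, at 17.4 to 34.8 against 8.07 to 18.1 CPM. Hippocampal cells were not compared within a cluster, and *Dlx6os1*, which leads the *Dlx* cluster described below, had UMIs in 4 of 85 against 44 of 244 cells. *Eomes* and *Neurog2*, which mark intermediate progenitors, were at 430.1 against 214 CPM and 305 against 11.9 CPM in the hippocampus. In the cortex each of these 2 genes had UMIs in only 2 of the 18 cells. *Stmn2*, a microtubule protein of growing neurites, was at 72.9 against 993 CPM in the hippocampus. The cells with G2/M transcripts were deeper (medians 12704.5 against 4968 UMIs and 16178 against 8880.5), and their own markers pointed to the class of their cluster in only 8 of 18 and 30 of 85. All 3 doublets called in the cortical class were among the 18.

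The hippocampal class consisted of 2 clusters. One of 377 cells, led by *Igfbpl1*, *Neurod1* and *Sox11* with *Eomes* and *Calb2*, held 83 of the 85 cells with at least 3 G2/M genes and had 2175 CPM of G2/M transcripts. The other of 49 cells, led by *Dlx6os1*, *Dlx1* and *Sp9*, genes of GABAergic precursors, had 105 CPM. The cortical class was 1 cluster with *Dlx* genes among its leading genes, so different kinds of cluster carried this class in the 2 regions. Among OPC-like cells, the 10 with at least 3 G2/M genes had *Pdgfra*, the growth factor receptor that marks OPCs, at 1606 CPM against 1722 CPM in the 63 with none. Their summed OPC list was at 13798 against 18308 CPM, with 10 of 10 markers lower. The intervals overlapped for *Pdgfra*, at 1412 to 1819 against 1609 to 1841 CPM, and for *Olig2*, *Lhfpl3* and *Ptprz1*. The committed OPC list, which shares *Neu4* and *Gpr17* with the OPC list, was lower too, at 2085 against 3404 CPM, with 7 of 8 markers lower. For *Fyn* the intervals overlapped, at 174 to 338 against 265 to 365 CPM.

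S phase genes were less restricted than G2/M genes. Their summed level was 1570 and 1153 CPM in immature neuron-like cells of the cortex and hippocampus and 677 CPM in OPC-like cells, but it was also 125 and 137 CPM in microglia-like, 155 and 150.3 CPM in endothelial-like and 66.1 and 70.3 CPM in astrocyte-like cells. The ratio of S phase to G2/M UMIs accordingly differed between classes. It was 0.935 and 0.577 in immature neuron-like cells, 0.5005 (interval 0.449 to 0.557) in OPC-like cells and 0.442 (0.327 to 0.591) and 0.423 (0.365 to 0.488) in macrophage-like cells. Cells with at least 3 G2/M genes numbered 10 in the OPC-like class, none of them in replicate 1. The macrophage-like classes had 2 in the cortex and 8 in the hippocampus. Against these ratios stood 4.87 (4.53 to 5.24) and 7.15 (6.63 to 7.72) in microglia-like and 5.38 and 4.15 in astrocyte-like cells. In endothelial-like cells the ratio was 1.12 (1.07 to 1.18) in the cortex and 4.26 (3.89 to 4.68) in the hippocampus.

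*Pcna* was at 166 CPM in cortical immature neuron-like cells (124, 177 and 190) and 118 CPM in hippocampal ones (124, 118 and 111), and it was also at 36.1 CPM (36.2, 37.0 and 35.0) and 38.4 CPM (41.9, 38.1 and 35.1) in microglia-like cells. In hippocampal oligodendrocyte-like cells, which had no thinned cell with 3 G2/M genes, *Pcna* was at 54.7 CPM (60.4, 53.7 and 49.4). The other 3 S phase genes with the most UMIs are all subunits of the MCM helicase, which licenses and unwinds replication origins. *Mcm7* was at 249 CPM (254, 166 and 329) and 183 CPM (202, 175 and 173) in immature neuron-like cells and at 16.6 and 17.8 CPM in microglia-like cells. *Mcm3* differed less between these classes, at 58.4 CPM (65.1, 44.3 and 67.0) and 66.6 CPM (65.4, 54.9 and 83.5) in immature neuron-like cells and at 26.6 CPM (29.7, 23.6 and 26.7) and 33.6 CPM (31.3, 37.2 and 31.9) in microglia-like cells. *Mcm6* was at 156 CPM (189, 83.0 and 201) and 129 CPM (124, 135 and 126) in immature neuron-like cells. It was at 25.5 CPM (25.2, 26.0 and 25.5) and 27.5 CPM (26.7, 28.2 and 27.5) in endothelial-like cells and at 7.50 and 6.98 CPM in microglia-like and 0.976 and 1.91 CPM in astrocyte-like cells. *Mcm6* was also at 27.5 CPM (43.0, 16.0 and 19.5) in ependymal-like, 34.8 CPM in neuron-like and 38.2 CPM in monocyte-like cells. The other 7 S phase genes lay between 35.0 CPM (*Mcm4*) and 397 CPM (*Pclaf*) in immature neuron-like cells of either region. *Rrm2* was at 206 and 122 CPM there against 0.143 and 0.0740 CPM in microglia-like cells.

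The E cyclins, which with CDK2 start replication, were rare, with 251 UMIs of *Ccne1* and 405 of *Ccne2* over all kept cells. *Ccne1* was at 35.1 and 19.6 CPM and *Ccne2* at 29.2 and 24.4 CPM in immature neuron-like cells, and at 17.3 and 16.0 CPM in OPC-like cells. In the cortical immature neuron-like class *Ccne1* rested on 18 UMIs, at 58.6, 44.3 and 5.58 CPM in replicates 1 to 3. Astrocyte-like cells had 2.12 and 0.715 CPM of *Ccne1*, and in the cortex they held 37 of its 91 UMIs. In microglia-like cells *Ccne1* was at 0.0571 and 0.123 CPM and *Ccne2* at 0.285 and 0.518 CPM. Endothelial-like cells had 4.32 and 2.70 CPM of *Ccne2* but 0.643 and 0.314 CPM of *Ccne1*.

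The 3 D cyclins had different profiles over the classes. *Ccnd1* was highest in OPC-like cells, at 1057 CPM (909.6, 1036 and 1161 in replicates 1 to 3), and in microglia-like cells it was at 64.6 CPM in the cortex (65.6, 66.2 and 62.0) and 137 CPM in the hippocampus (135, 136 and 141). In the next stages of the oligodendrocyte lineage it was at 4.50 CPM in committed OPC-like cells and at 38.3 CPM (cortex) and 3.23 CPM (hippocampus) in oligodendrocyte-like cells. *Ccnd1* was also at 170.3 CPM (188, 155 and 168) and 87.8 CPM (91.2, 83.0 and 89.4) in endothelial-like cells, at 75.7 and 209 CPM in macrophage-like cells and at only 25.1 and 9.38 CPM in astrocyte-like cells.

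*Ccnd2*, which is needed for the division of neuronal progenitors, was highest in immature neuron-like cells, at 2725 CPM in the cortical class (3446, 2170.3 and 2667) and 1073 CPM in the hippocampal one (1035, 1061 and 1127). Within the hippocampal class it was at 3117 ± 213 CPM (pooled, with the SD over libraries, n = 3) in the *Dlx* cluster against 883 ± 58.4 CPM in the *Neurod1* cluster, while the G2/M sums of these clusters were 105 and 2175 CPM. In microglia-like cells *Ccnd2* was nearly absent, at 1.37 CPM (1.74, 1.25 and 1.13) and 1.11 CPM (0.977, 0.761 and 1.64), and it was at 1.93 CPM in committed OPC-like and 1.78 CPM in hippocampal oligodendrocyte-like cells. Smooth muscle (VSMC)-like cells had 332 CPM (346, 315 and 333) and 559 CPM (594, 552 and 528), choroid plexus epithelial-like cells 221 CPM (222 CPM in the 267 of 825 cells with unshared barcodes) and astrocyte-like cells 83.3 and 56.3 CPM. Endothelial-like cells had 54.8 CPM (60.3, 49.5 and 54.4) and 95.4 CPM (92.9, 87.1 and 107). An unnamed cortical cluster of 241 cells with all 10 endothelial markers and arterial genes such as *Bmx* and *Gkn3* had 266 CPM, and a hippocampal endothelial-like cluster of 523 cells led by the same genes had 215 CPM.

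*Ccnd3* had the flattest profile. It was at 166 CPM (167, 163 and 168) and 130.2 CPM (129.9, 127 and 134) in endothelial-like cells, at 57.9 CPM (57.7, 59.3 and 56.7) and 38.5 CPM (36.5, 37.4 and 41.7) in microglia-like cells and at 56.2 and 39.3 CPM in astrocyte-like cells. The highest levels were in blood cell classes of the cortex, with 228 CPM in monocyte-like cells and 213 CPM in the B/T-cell-gene cluster. Immature neuron-like cells had 29.2 and 27.6 CPM and oligodendrocyte-like cells 18.8 and 14.2 CPM.

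**Figure D3:**
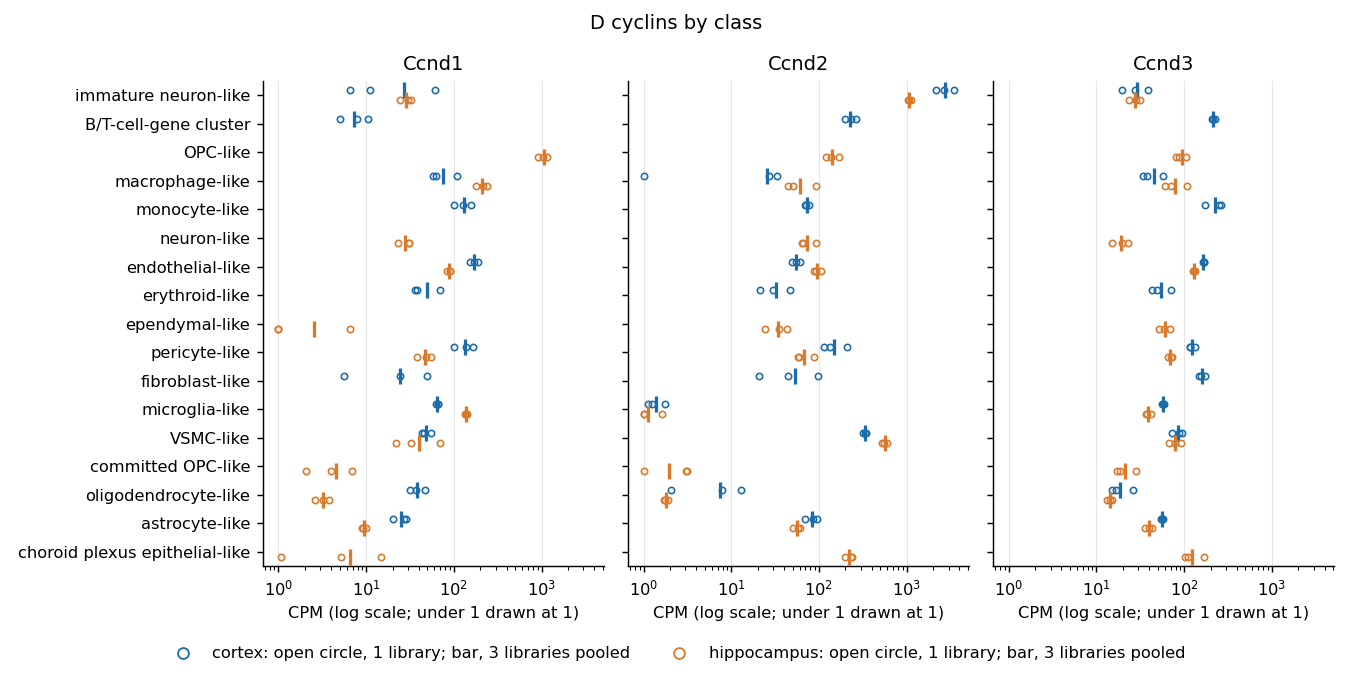
CPM (log scale) of *Ccnd1*, *Ccnd2* and *Ccnd3* by class and region, with an open circle for each library and a bar for the 3 libraries pooled. *Ccnd1* peaks in OPC-like cells (1057 CPM) and *Ccnd2* in immature neuron-like cells (2725 and 1073 CPM) with a low of 1.11 CPM in microglia-like cells, and *Ccnd3* varies least, from 14.2 to 228 CPM.

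D cyclins were also at different levels in cells of 1 class with and without G2/M transcripts. In hippocampal immature neuron-like cells *Ccnd2* was at 1679 CPM in the 85 cells with at least 3 G2/M genes and 594 CPM in the 244 cells with none, and in the cortex at 2848 against 2199 CPM. In OPC-like cells *Ccnd1* was at 1502 against 941 CPM. In cortical endothelial-like cells *Ccnd1* was at 350.5 CPM in the 24 cells with at least 3 G2/M genes against 152 CPM in the 1850 with none, whereas *Ccnd2* was at 7.10 against 59.0 CPM. The cells with G2/M transcripts were deeper in each class, with medians of 12704.5 to 18130.0 UMIs against 4968 to 8880.5, and these values have no replicate check of their own.

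The CDK inhibitors had levels of their own in each class. *Cdkn1a*, the p21 gene induced by p53 and by stress, was at 553 CPM (533, 564 and 562) in cortical and 396 CPM (396, 401 and 391) in hippocampal endothelial-like cells, and at 496 CPM in the cortical arterial cluster. It was at 25.9 and 28.4 CPM in microglia-like and 4.51 and 4.03 CPM in oligodendrocyte-like cells. *Cdkn1c*, the imprinted p57 gene, was at 235.2 CPM (215, 246 and 245) and 235.3 CPM (209.7, 249.8 and 246) in endothelial-like cells, at 966 CPM (914, 886 and 1105) in the cortical arterial cluster, at 377 CPM in choroid plexus epithelial-like cells (389 CPM without shared barcodes) and at 311 CPM (347, 310.1 and 266) in neuron-like cells. Microglia-like cells had 17.9 and 23.5 CPM and astrocyte-like cells 5.74 and 1.75 CPM of *Cdkn1c*. *Cdkn1b*, the p27 gene of quiescent and differentiated cells, was present in every class. It was highest in immature neuron-like cells, at 242 CPM (274, 227 and 229) and 328 CPM (331, 343 and 306), and in neuron-like cells at 238 CPM, against 114 and 118 CPM in astrocyte-like, 91.6 and 102 CPM in endothelial-like and 70.2 and 74.2 CPM in microglia-like cells. Within classes, *Cdkn1b* was at 165 against 300 CPM in the cortical and 268 against 369 CPM in the hippocampal immature neuron-like cells with and without G2/M transcripts. *Cdkn1c* was at 21.3 against 274 CPM and *Cdkn1a* at 336 against 564 CPM in cortical endothelial-like cells.

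**Figure D4:**
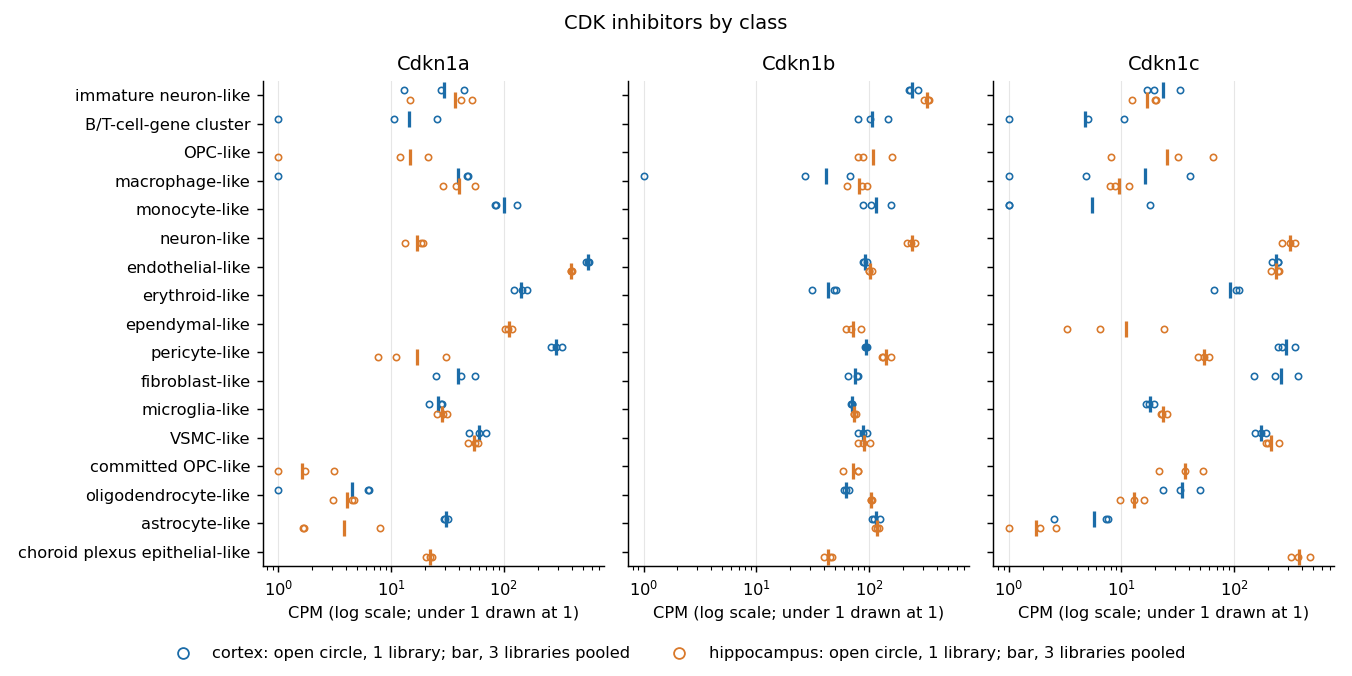
CPM (log scale) of *Cdkn1a*, *Cdkn1b* and *Cdkn1c* by class and region, with an open circle for each library and a bar for the 3 libraries pooled. *Cdkn1a* is highest in endothelial-like cells (553 and 396 CPM), and *Cdkn1b* lies between 41.3 and 328 CPM. *Cdkn1c* ranges from 1.75 CPM in hippocampal astrocyte-like cells to 377 CPM in choroid plexus epithelial-like cells. The unnamed arterial cluster, at 966 CPM of *Cdkn1c*, is not drawn.

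The regions were compared within classes by the log2 ratio of CPM, hippocampus over cortex, among genes with at least 20 UMIs in the class over both regions, and a gene was called when the ratio was at least 2-fold and the 3 libraries of one region lay outside the range of the other. The minimum applies to the sum of both regions, so a gene that was low in one region could pass through the other. Shares of all genes called are given for the main setting only, so counts of members under other settings cannot be set against a background. In endothelial-like cells 36 of 37 members passed the minimum and 11 were called, all higher in the cortex, where 3.05% of the 12836 genes compared were called in that direction, 7.29% in the other and 10.3% in either. They were the G2/M genes *Ccna2*, *Ccnb2*, *Cdk1*, *Birc5*, *Cenpf*, *Cenpe*, *Bub1*, *Cdc20* and *Tpx2* and the S phase genes *Rrm2* and *Pclaf*. *Cdk1* was at 25.8 CPM (25.5, 16.1 and 36.0) against 4.27 CPM (5.80, 3.29 and 3.73), a log2 ratio of -2.59 (interval -2.98 to -2.23). *Cenpf* was at 8.41 CPM (10.6, 3.75 and 10.8) against 1.63 CPM (2.43, 1.65 and 0.786), a log2 ratio of -2.36 (-3.02 to -1.77). *Top2a*, *Mki67* and *Ube2c* had log2 ratios of -4.21, -3.20 and -3.12, but the libraries overlapped. *Top2a* was at 19.4, 1.94 and 24.1 CPM in the cortex and 2.24, 0.183 and 0 CPM in the hippocampus. *Cenpa* was at 12.9 and 12.7 CPM, with a log2 ratio of -0.02 (-0.29 to 0.25).

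All 18 G2/M genes passed the minimum in endothelial-like cells and all 18 ratios were below 0. Their median log2 ratio was -2.50 against 0.16 over all genes compared, whereas the 11 S phase genes had a median of -0.02. The 18 ratios are not separate observations, since only 24 cortical and 5 hippocampal cells of the class had at least 3 of these genes. The minimum could also be met through the cortex, as for *Bub1*, at 2.41, 0.417 and 2.25 CPM there and 0, 0 and 0.196 CPM in the hippocampus. With the cell cycle genes kept in the clustering the ratio was above 0 for 5 of the 9 called G2/M genes, *Ccnb2* (0.71), *Birc5* (0.62), *Cenpf* (0.22), *Cenpe* (0.97) and *Tpx2* (0.65). Other lists of cell cycle genes, chosen with earlier results of these data known, were counted in the same cells and give no separate support. Of another G2/M list, 19 of 61 compared genes were called higher in the cortex and none higher in the hippocampus. In another S phase list 2 of 38 were called higher in the cortex, and in a list of G1 regulators 4 of 30. Among the 5 of largest ratio were *Cdca3*, a regulator of mitotic entry, at 3.03 against 0.126 CPM and *Tfdp1*, the dimer partner of E2F factors, at 18.1 against 1.70 CPM. *Tfdp1* was lower in the hippocampus in other classes too, with log2 ratios of -3.46 in microglia-like, -3.27 in astrocyte-like, -3.29 in pericyte-like, -3.43 in immature neuron-like and -3.88 in oligodendrocyte-like cells. Cortical replicate 2, with a G2/M sum of 57.1 CPM, stood below replicates 1 and 3, and without it 20 members were called. With the cell cycle genes kept in the clustering, the cortical endothelial-like G2/M sum was 37.3 CPM and 1 member was called. With no upper limit on genes per cell the sum was 315 CPM and 21 members were called, and with a mitochondrial limit of 10% there were 3. Of all genes called, 67.9% were higher in the hippocampus without cortical replicate 2 and 64.0% with no upper limit on genes. How large a share of all genes was called is not given for these alternatives, so their counts have no background. The hippocampal class held an arterial cluster whose cortical counterpart stayed unnamed, and with unnamed clusters given their closest class 9 members were called.

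In microglia-like cells 30 members passed the minimum and 3 were called, where 6.29% of 13375 genes were called, 3.9% higher in the hippocampus and 2.39% higher in the cortex. *Ccnd1* was higher in the hippocampus (log2 ratio 1.09, interval 1.02 to 1.16), *Pclaf* was at 2.47 against 1.23 CPM (1.01, 0.48 to 1.56), and *Cdk1* was lower, at 4.54 CPM (4.66, 3.599 and 5.47) against 9.41 CPM (9.68, 8.81 and 9.78), a log2 ratio of -1.05 (-1.32 to -0.79). All 3 calls lay close to the 2-fold limit. With counts scaled by the median of ratios, which moves the median gene by 0.11, the ratio of *Ccnd1* was 0.97 and 1 member was called. With cells classed by their own markers in place of clusters 18 members were called, all higher in the hippocampus. That count has no background, since the share of all genes called is not given for it. Of all genes called in that setting 75.6% were higher in the hippocampus. The hippocampal G2/M sum was then 45.5 CPM. The G2/M and S phase groups had median log2 ratios of -0.05 and 0.15, against 0.11 over all genes compared.

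**Figure D5:**
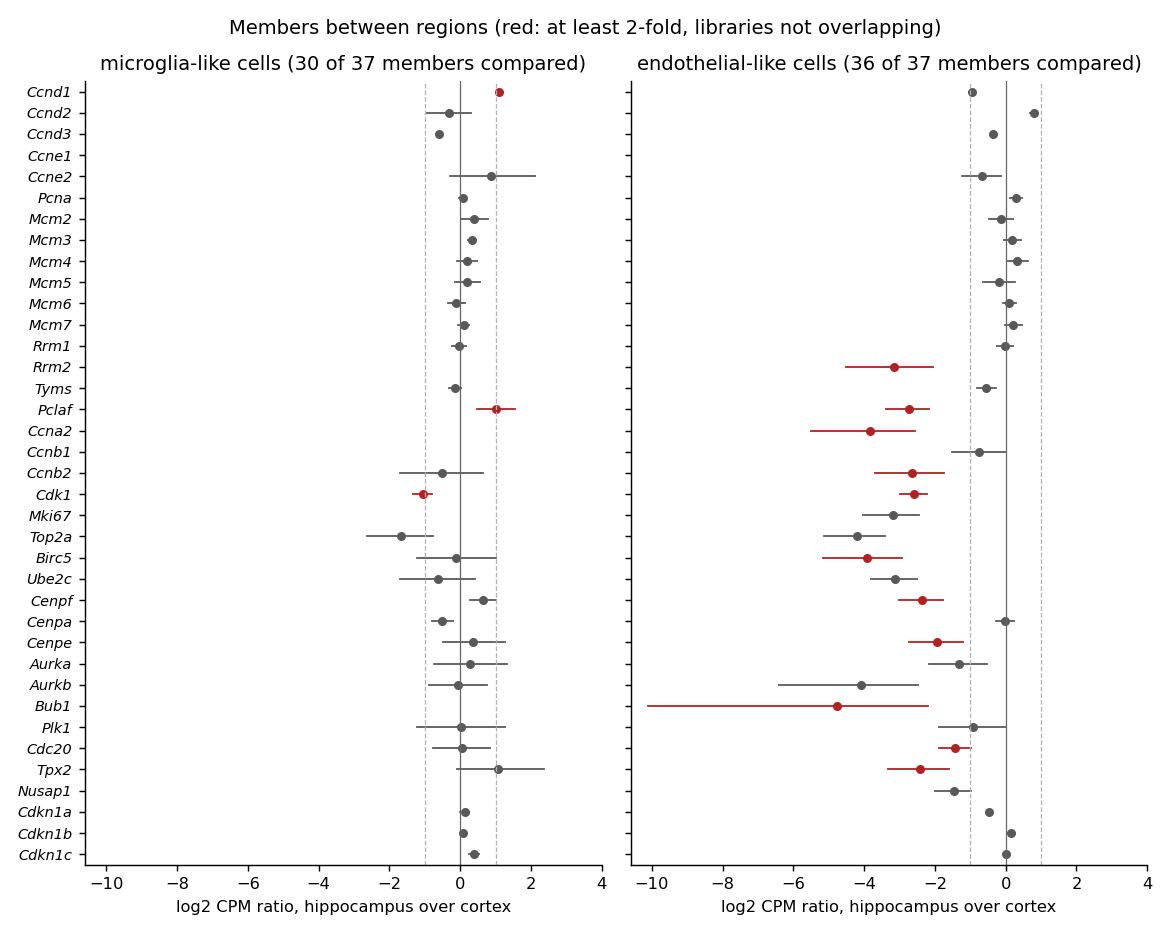
Log2 ratio of CPM, hippocampus over cortex, of the members with at least 20 UMIs in microglia-like (30 of 37) and endothelial-like cells (36 of 37), with exact 95% counting intervals, dashed lines at 2-fold and red for members called. The 11 red points among endothelial-like cells all lie below 0, and the 3 among microglia-like cells lie next to the 2-fold lines.

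In astrocyte-like cells 24 members were compared and 3 were called, where 10.3% of genes were called, 5.52% higher in the hippocampus and 4.75% higher in the cortex. *Cdkn1a* was at 30.6 CPM (32.0, 30.2 and 29.5) in the cortex and 3.81 CPM (7.99, 1.67 and 1.70) in the hippocampus, a log2 ratio of -3.00 (-3.46 to -2.58), and *Ccnd1* and *Ccne1* had ratios of -1.42 and -1.57. There were 6 calls with doublets left out or with classes from own markers and 7 without cortical replicate 1, the same 3 among them each time. With a mitochondrial limit of 10%, which left 860 cortical cells, 5 were called, with 2 of the 3 among them. With a minimum of 100 UMIs only 2 of the 3 were called. The sum of the 10 endothelial markers moved with *Cdkn1a*, at 393 CPM (252 to 539 over the libraries) in cortical and 47.4 CPM (39.8 to 56.1) in hippocampal astrocyte-like cells, and their part in the result was not tested. In pericyte-like cells 21 members were compared and 6 were called, all higher in the cortex, where 19.5% of genes were called, 9.26% higher in the hippocampus and 10.2% higher in the cortex. They included *Cdkn1a*, at 290.4 CPM (325, 290.1 and 259.8) against 16.8 CPM (7.64, 30.9 and 11.1), and *Cdkn1c*, at 285 CPM (243, 265 and 346) against 54.0 CPM (59.6, 54.4 and 47.7). There the 10 endothelial markers summed to 13124 CPM (12264 to 14073 over the libraries) in the cortex and 677 CPM (668 to 690.0) in the hippocampus, and 6 erythroid markers, of which 1 was at 0 in the hippocampus, to 21498 and 32.1 CPM. Both lists moved with these genes, and their part in the result was not tested. The cortical class had 372 cells, and none of the members was called at resolution 1.0, which left 168 of them, and 2 were called with classes from each cell's own markers.

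In macrophage-like cells 25 members were compared and 3 were called, all higher in the hippocampus, where 9.71% of genes were called, 8.09% in that direction and 1.62% in the other. They were *Ccnd1* at 209 CPM (181, 213 and 238) against 75.7 CPM (62.4, 57.6 and 108), *Ccnd2* at 60.9 against 25.2 CPM and *Mcm3* at 38.0 against 18.4 CPM, the last on 8 cortical UMIs. There was 1 call with classes from own markers and 6 without hippocampal replicate 2. In immature neuron-like cells all 37 were compared and 3 were called, where 15.8% of genes were called, 13.3% higher in the hippocampus and 2.48% higher in the cortex. *Ccnd2* had a log2 ratio of -1.34 (-1.43 to -1.26), whereas *Plk1* and *Cdc20*, a mitotic kinase and an activator of the anaphase-promoting complex, had 1.03 and 1.02 on 8 and 18 cortical UMIs. The clusters behind this class differ between the regions, as described for *Ccnd2*. With the cell cycle genes kept in the clustering 32 members were called, 31 of them higher in the cortex and none of these 3 among them. The share of all genes called is not given there, so the 32 have no background. In that setting 62.4% of all called genes were higher in the hippocampus. With doublets left out or median of ratios scaling 1 member was called. In oligodendrocyte-like cells, of which the cortex had 66, 23 members were compared and 6 were called, 3 in each direction, where 17.8% of genes were called, 7.33% higher in the hippocampus and 10.5% higher in the cortex. *Ccnd1* was at 38.3 CPM (32.0, 37.3 and 47.4) against 3.23 CPM (3.78, 3.21 and 2.63). With classes from own markers, which left 40 cortical cells, 5 members were called higher in the hippocampus and none higher in the cortex. The 3 members called higher in the hippocampus, *Mki67*, *Pclaf* and *Cdc20*, had no UMI in the cortical class, which allows up to 2.25 CPM. *Mki67* was at 2.93 CPM (2.84, 3.08 and 2.89) in the hippocampal class, near that limit, and *Pclaf* and *Cdc20*, at 1.02 and 1.70 CPM, were under it, so that a difference was not detectable at this depth for either. In VSMC-like cells none of the 12 members compared was called, where 5.98% of genes were, 1.8% higher in the hippocampus and 4.18% higher in the cortex.

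A few members had UMIs in cells without the rest of their group. *Ube2c* made up 54.6% of the G2/M UMIs of the erythroid-like class, and in an erythroid-like cluster of 248 cells it was at 76.5 ± 9.37 CPM (with the SD over libraries, n = 3), together with *Nusap1*, a spindle protein, at 23.5 ± 3.63 CPM. In that cluster 5 cells had at least 3 G2/M genes. *Cenpf* made up 88.0% of the G2/M UMIs of neuron-like cells, a hippocampal cluster led by *Reln*, and was at 164 CPM there (198, 135 and 154), while *Top2a* had no UMI and *Mki67* had 3. *Tpx2*, a spindle assembly factor, made up 49.2% of the G2/M UMIs of ependymal-like cells and was at 40.3 CPM, beside *Mcm4* at 36.4 CPM (40.4 and 36.5 CPM without shared barcodes). In cortical endothelial-like cells a cluster of 129 cells led by *Adm*, *Apln* and *Angpt2*, of which the last 2 mark sprouting vessels, had *Cdk1* at 36.4 ± 12.1 CPM and *Mcm6* at 68.0 ± 18.7 CPM, with no UMI of *Ube2c* or *Nusap1*. In microglia-like cells *Cdk1* had 330 UMIs in the cortex and 184 in the hippocampus, where *Mki67* had 13 and 3 and *Top2a* 41 and 15.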

How the data were processed

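The 10x Genomics scRNA-seq libraries analysed were 3 technical replicates of the cortex at 3 weeks and 3 of the hippocampus at 5 weeks. The deposited files hold UMI counts per gene and barcode, which the authors made with Cell Ranger against mm10 (version 3.0.1 for the cortex and 3.1.0 for the hippocampus per the file headers, 5.0.1 in the submitters' processing notes), and no normalised values were used. The libraries held 39662203 to 50024850 UMIs in 4894 to 6121 barcodes and listed 31053 genes (cortex) or 27998 genes (hippocampus), of which 27514 shared an Ensembl identifier.

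Cells with 250 to 6000 genes and under 25% mitochondrial UMIs were kept. Doublets were called per library with Scrublet (scanpy 1.11.5) and retained, 762 in the cortex and 551 in the hippocampus. The libraries of each region were integrated and clustered in Seurat 5.3.0 (R 4.3.3) with 2000 variable genes, 30 dimensions and resolution 0.5, leaving out the members and 136 other cell cycle genes. A cluster was named from at least 3 markers of 1 of 20 lists, and with fewer stayed unnamed. It also stayed unnamed when more of its leading genes belonged to another list. The same held when its UMI count was low and none of its leading genes was in the list. UMIs were then summed per library and class and divided by all UMIs of the same cells (Python 3.11.15, pandas 2.3.3). Intervals are exact Poisson or Clopper-Pearson intervals at 95%, and the limit for a count of 0 is that of 3 counts, both for counting error only. With 1 biological sample a region there was no test. The scripts were tested on simulated counts.

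The members and lists were chosen with earlier results of these data known. Values per library are given for all D cyclins and CDK inhibitors and for the 4 S phase and 6 G2/M genes with the most UMIs, and for other members where a comparison called them or they were singled out after their values were seen. Gene coordinates and promoters are those of GRCm38 and RefSeq. Another cortical preparation of the study was not analysed here.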

Additional observations from a re-analysis of the deposited data

Results flagged for a closer look

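In 3 members the difference between microglia-like and endothelial-like cells had opposite directions in the 2 regions in every library. The difference between regions was not tested. No share over all genes is given for this rule, so the count of 3 cannot be set against a background. For *Ccnd1*, the G1 cyclin, microglia-like minus endothelial-like cells came to -106 CPM in the cortex and 49.4 CPM in the hippocampus. For *Pclaf*, the PCNA partner of replicating cells, it was -9.72 and 0.819 CPM. For *Cenpf*, the kinetochore protein, it was -5.60 and 2.76 CPM. In cortical replicate 2 the classes lay close, with *Pclaf* at 0.997 against 2.08 CPM and *Cenpf* at 3.08 against 3.75 CPM. With the cell cycle genes kept in the clustering, the ratio of *Cenpf* between regions in endothelial-like cells changed sign.

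Signals also appeared in barcodes outside the quality limits. Of the 200 cortical barcodes with over 6000 genes, 9% still had at least 3 G2/M genes after thinning to 2000 UMIs (interval 5.42% to 13.9%), against 0.327% of the kept cells. Before thinning these were 45 barcodes, of which 27 were endothelial by their own markers, and 12.5% of the 200 were called doublets. In the hippocampus, 1.33% of 376 such barcodes had at least 3 G2/M genes after thinning. The 4417 cortical barcodes with too few genes or too many mitochondrial UMIs held *Ube2c* at 73.8 CPM and *Nusap1* at 21.8 CPM, close to the levels of the erythroid-like cluster described above (76.5 and 23.5 CPM).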

How the results depend on the processing

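No paired analysis was possible because the 3 libraries of a region are technical replicates of 1 suspension, the numbers of the regions mark no shared animals, and no test was made. The share of cells with at least 3 G2/M genes depended on depth and on the definition. Without thinning it was 0.556% in the cortex and 1.147% in the hippocampus, and in the hippocampus it was 0.465% at 1000 UMIs, 0.841% with at least 2 genes and 0.464% with at least 5. Leaving out 1 library gave 0.231% to 0.399% in the cortex and 0.536% to 0.618% in the hippocampus. The 11 calls in endothelial-like cells became 21 with no upper limit on genes, 3 with a mitochondrial limit of 10%, 1 with the cell cycle genes kept in the clustering, and 11 to 20 with 1 library left out, 20 being without cortex replicate 2. With the cell cycle genes in the clustering the log2 ratio turned positive for *Rrm2* (0.23), *Ccnb2* (0.71), *Birc5* (0.62), *Cenpf* (0.22), *Cenpe* (0.97) and *Tpx2* (0.65), and the cause was not tested. The 3 calls in microglia-like cells became 18 with classes from each cell's own markers, 7 with unnamed clusters given their closest class, an alternative added after the data were seen, and 1 with median of ratios scaling, with 2 to 4 when 1 library was left out. That scaling shifted the median ratio by -0.11 in microglia-like and -0.16 in endothelial-like cells. The share of all genes called is not given for these alternatives, so their counts cannot be set against a background. Of the other alternatives for named genes and sums, 332 kept their direction and side, 34 fell under the limit and 10 sums moved by more than the SD between libraries. Between 66 and 89 cells of a cortical class, as for oligodendrocyte-like and macrophage-like cells, leave single genes on few UMIs.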
